A study of Mus musculus with 5 samples.

Results

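Bone morphogenetic proteins (BMPs) are secreted ligands of the TGF-beta superfamily, and 10 genes of their pathway were examined here in the neonatal mouse heart. They are the ligands Bmp2, Bmp4, Bmp5, Bmp7 and Bmp10, the receptors Bmpr1a and Bmpr2, and the inhibitor of DNA binding (ID) genes Id1, Id2 and Id3, which are standard targets of the signal. The 10 were chosen by name, as well-known members of the pathway, with earlier results of these data known. They were found by symbol among the 49671 genes of the count table. All 10 passed the filter on low counts, as did 14880 genes in all, the filter being 10 or more counts in 2 or more pools. RNA came from whole hearts of C57BL6/J mice on postnatal day 2 (PN2). Charme KO animals carry a PolyA signal inserted in the locus of Charme, a long noncoding RNA of muscle, and Charme WT animals do not. Each Charme WT pool (n = 3) held 9 hearts, and each Charme KO pool (n = 2) held 3 hearts. Genotype and the number of hearts per pool therefore cannot be told apart, and the spread given below is between pools, not between animals.

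A BMP dimer brings together type I and type II receptor kinases at the cell surface, and the type II kinase activates the type I kinase. The activated receptor phosphorylates the receptor SMADs, which join SMAD4, enter the nucleus and switch on genes such as Id1. ID proteins carry no DNA-binding region of their own and hold the E proteins, a class of transcription factor, away from DNA. In the developing heart BMPs act in the formation of the cushions and the outflow tract, and Bmp10, the ligand most restricted to the heart, is made by trabecular cardiomyocytes of the embryo and by atrial cardiomyocytes after birth.

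Of the 10 genes, Bmp10 alone was called between the genotypes. It was higher in Charme KO hearts, at 10.2 ± 0.0807 FPKM (SD, n = 2 pools) against 4.78 ± 1.40 FPKM (SD, n = 3 pools) in Charme WT hearts. Id1 and Id2 had both Charme KO values above the Charme WT range, and Bmp2 had both below it, without passing the test. The other 6 genes overlapped between the genotypes. FPKM, the number of fragments scaled by exon length and library size, is corrected for gene length and allows the levels of different genes to be compared.

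The stretch of 250 bases upstream of the transcription start of Bmp10 is shown because Bmp10 carries the difference, and that of Bmp4, a ligand with no call, is shown for comparison. Both were taken from RefSeq on GRCm38.p6, where 7 of the 10 genes had a promoter entry, with none for Bmp2, Bmp7 and Id1. The Bmp10 stretch is chr6:87428744-87428993 on the plus strand, and the Bmp4 stretch is chr14:46390670-46390919 on the minus strand. Both are written 5′ to 3′ and end at the base before the start. Capitals mark the motif GATAA, read by GATA factors, in Bmp10 and the E-box CANNTG, to which E proteins bind, in Bmp4.
Bmp10: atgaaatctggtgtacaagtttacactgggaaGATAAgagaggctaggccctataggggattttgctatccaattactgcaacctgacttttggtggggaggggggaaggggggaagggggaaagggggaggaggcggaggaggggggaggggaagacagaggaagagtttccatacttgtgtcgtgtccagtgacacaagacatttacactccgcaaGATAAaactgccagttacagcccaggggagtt
Bmp4: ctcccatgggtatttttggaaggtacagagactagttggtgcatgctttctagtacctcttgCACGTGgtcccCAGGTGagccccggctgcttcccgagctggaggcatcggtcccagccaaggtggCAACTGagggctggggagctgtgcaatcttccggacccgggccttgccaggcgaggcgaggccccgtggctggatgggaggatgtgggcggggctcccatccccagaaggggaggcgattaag

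The motif GATAA stood at 218 and 32 bases before the start of Bmp10, counted to the first base of the motif. Both strands were searched, and 22.6% of 32851 RefSeq promoter stretches of the same length held it at least once. Bmp5, a ligand with no call, held GATAA as well, at 174 bases before its start, and Bmp4 did not. The Bmp10 stretch also held CCAAT, found in 33.8% of all stretches, and no E-box. The Bmp4 stretch held the E-box 3 times, at 188, 177 and 123 bases before the start, a motif present in 66.2% of all stretches. Among the other 5 genes with an entry, the SMAD motif CAGAC was present in Bmp5 and Id3 (42.2% of all stretches). The motif GGCGCC, a GC-rich form read by BMP SMADs, was present in Bmpr1a, Bmpr2 and Id2 (9.6%). The stretches of Bmpr1a, Bmpr2, Id2 and Id3 lie before the RefSeq start but inside the gene spans of GENCODE M21 given below. These are matches of letters only, and no binding was measured here.

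In Charme WT hearts the 10 genes covered a range of levels from 1.15 to 38.6 FPKM. The ID genes Id3 and Id1 were the highest, at means of 38.6 and 36.9 FPKM, and their pools overlapped. Their levels exceeded those of 92.6% and 92.3% of the genes tested. Bmpr1a followed at 22.1 FPKM, then Bmp7 at 14.0 FPKM and Id2 at 14.0 FPKM, the last pair with overlapping pools. Bmp10 at 4.78 FPKM and Bmpr2 at 4.24 FPKM also overlapped. Bmp4 at 2.50 FPKM, Bmp5 at 1.88 FPKM and Bmp2 at 1.15 FPKM closed the order, with no overlap between neighbours. Bmp7 was thus the most abundant BMP transcript among the 5 ligands, and Bmp2 the scarcest, in wild-type hearts at PN2. The levels are those of whole hearts, in which fewer cells of a type and less RNA per cell cannot be told apart.

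**Figure D1:**
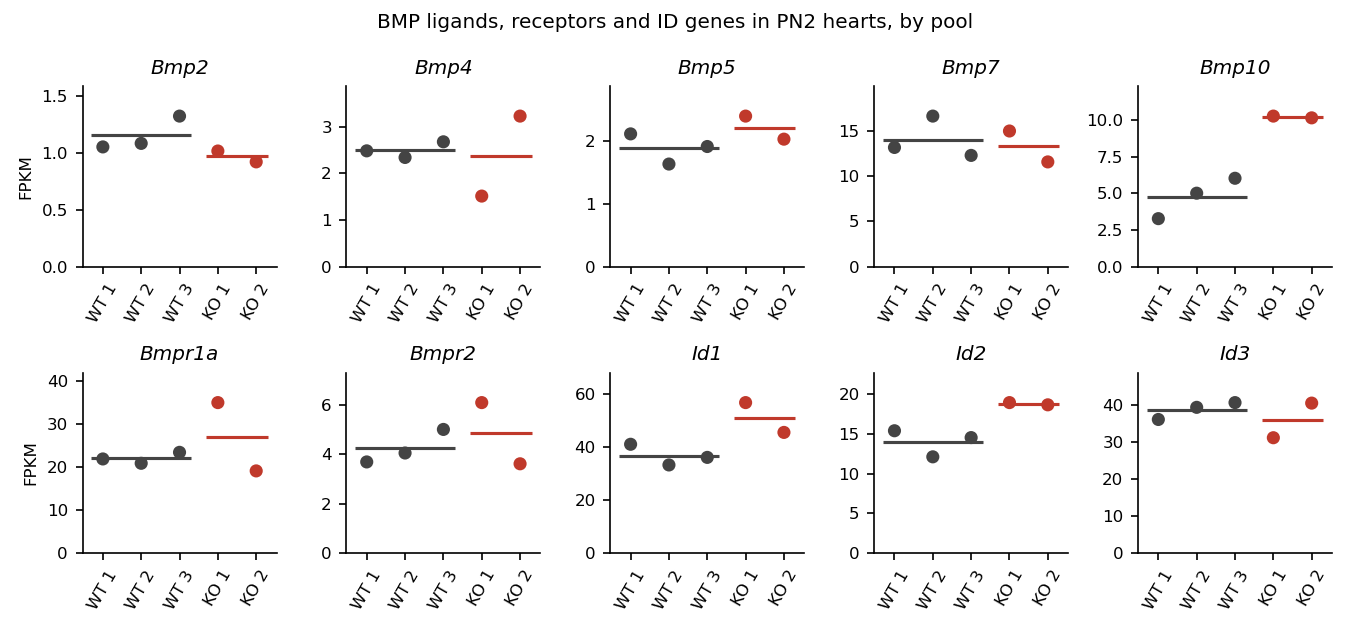
Level in FPKM (vertical axes, each from 0 and to its own scale) of the 10 genes in each pool, Charme WT in grey and Charme KO in red, with a line at the mean of each genotype. Bmp10 stands at 10.3 and 10.2 FPKM in the Charme KO pools against at most 6.04 FPKM in Charme WT pools, while the Charme KO pools of Bmp4, Bmpr1a and Bmpr2 lie on both sides of the Charme WT pools.

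The pools held between 16721055 and 21646378 fragments on genes. Charme itself, the check of the labels, had 810, 183 and 276 counts in Charme WT pools and 57 and 79 counts in Charme KO pools (log2 fold change -2.49, SE 0.549, adjusted p = 0.0763 by edgeR). For the labelled tissue, all 8 general cardiomyocyte genes passed the filter, with a summed level of 11920 to 17670 FPKM in Charme WT and 14910 to 15650 FPKM in Charme KO pools. The Charme KO pools each stood apart in another measure. Mitochondrial transcripts made up 21.1% of the counts of Charme KO pool 1, against 9.68% to 11.2% in the other 4 pools. Genes of the salivary gland, which is no part of the heart, made up 2.61% of the counts of Charme KO pool 2 and 0.0284% of those of pool 1, while adipose genes summed to 655 FPKM in pool 2 and at most 47.9 FPKM in the other pools. The value without 1 of these pools is given below where it moved a fold change by over 1.5 times or changed a call. It was not examined for Bmp6, Acvr1, Tob1, Twsg1, Nbl1, Tbx20 and Tcf12, nor for marker genes other than Nppa, Myl7, Myl4, Nppb and Irx3.

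Among the ligands, Bmp10 (chr6, 87428994 to 87437677, plus strand) had 3.28, 5.02 and 6.04 FPKM in Charme WT pools and 10.3 and 10.2 FPKM in Charme KO pools, from between 303 and 1019 counts. Both Charme KO values exceeded the whole Charme WT range and differed less from each other than any 2 Charme WT values did. The log2 fold change was 1.10, a 2.14-fold difference, with SE 0.250 and a 95% interval of 0.54 to 1.66, and the adjusted p was 0.0821 in the quasi-likelihood test of edgeR, adjusted by Benjamini-Hochberg across 14880 genes. A gene counted as called where its adjusted p was under 0.1 and its mean reached 1 FPKM in at least 1 genotype. Of all genes tested, 2.05% were called in either direction, 1.53% as higher and 0.524% as lower in Charme KO hearts, so that 1 call among 10 genes stands beside a small background. The likelihood ratio test of edgeR (adjusted p = 0.00443) and DESeq2 (adjusted p = 0.00396) also called Bmp10 and no other of the 10, at backgrounds of 6.27% and 7.54% of genes. In 3 against 2 pools, an exact two-sided permutation test of a single gene cannot give a p below 0.1.

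The size of the Bmp10 difference did not rest on either Charme KO pool. Without pool 1 the log2 fold change was 1.09 (adjusted p = 0.0350, quasi-likelihood test) and without pool 2 it was 1.10 (adjusted p = 0.0154). The call did rest on the number of Charme WT pools. Without Charme WT pool 1, 2 or 3 in turn the log2 fold change was 0.89, 1.14 or 1.30, with adjusted p-values of 0.216, 0.166 and 0.275. Over all 18 alternative settings the fold change stayed positive, between 0.89 and 1.33, with adjusted p-values from 0.00396 to 0.275, and the call was kept in 13.

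**Figure D2:**
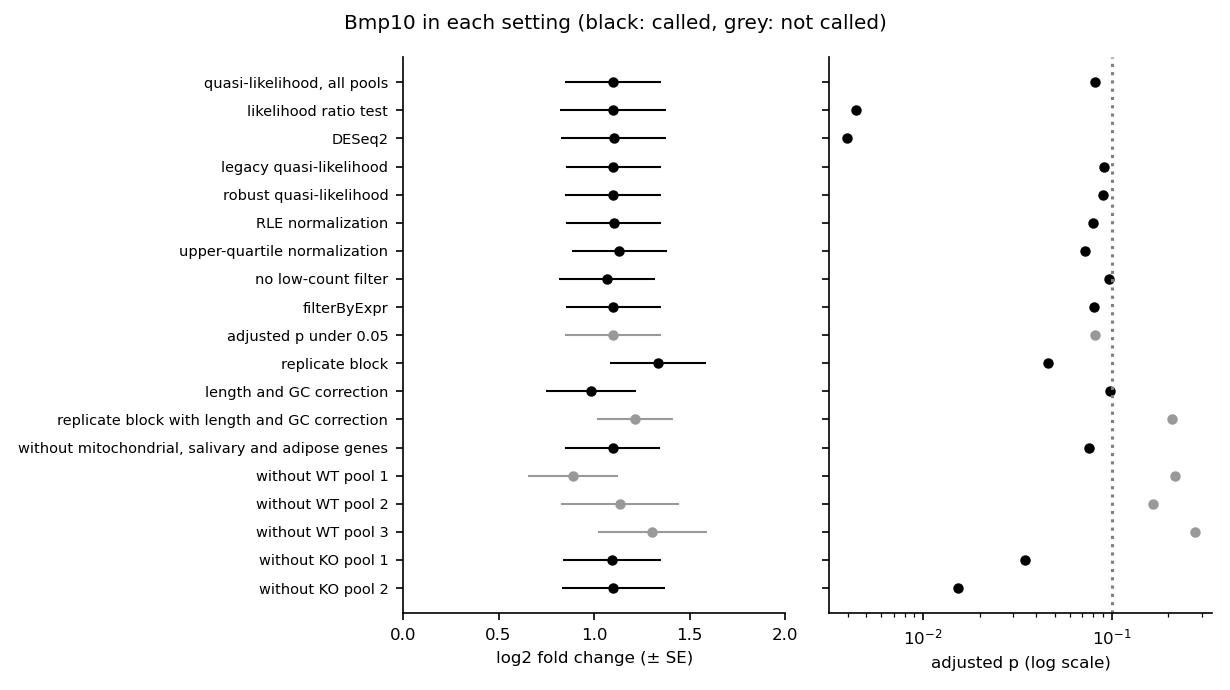
Log2 fold change of Bmp10, Charme KO over Charme WT, with its SE (left) and adjusted p on a log axis (right) in each setting, black where Bmp10 was called and grey where it was not, with a dotted line at the threshold of 0.1. The fold changes lie between 0.89 and 1.33, while the adjusted p passes the dotted line when any Charme WT pool is left out and under the replicate block with the length and GC correction.

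Bmp10 is itself a gene of atrial and trabecular cardiomyocytes, and the levels of other markers of these cells are given beside it. Of 8 atrial genes, 1 was called, as higher, beside 1.53% of all genes tested. For 4 of the 8 both Charme KO values were above the Charme WT range, and for 1, Kcna5, both were below it. The backgrounds over all genes were 17.8% and 18.2%. The list summed to 1548 to 2007 FPKM in Charme WT pools and to 2567 and 3703 FPKM in Charme KO pools, mostly from Nppa and Myl7. Kcna5, Stard10, Dkk3 and Pam had log2 fold changes of -0.39, 0.07, -0.06 and 0.09, and none of them was called. Myl4, the atrial essential light chain, had 92.0, 106.6 and 102.5 FPKM in Charme WT pools and 224.2 and 239.3 FPKM in Charme KO pools (log2 fold change 1.21, SE 0.184, adjusted p = 0.0343, edgeR's quasi-likelihood test). Its adjusted p was 0.168 without Charme WT pool 1 and 0.274 without Charme WT pool 3, by the same edgeR test. Nppa, the atrial natriuretic peptide, had 677.3, 1273 and 1066 FPKM against 1404 and 2137 FPKM and was not called (log2 fold change 0.82, adjusted p = 0.199, same edgeR test). Myl7, the atrial regulatory light chain, had 572.3, 314.7 and 611.4 FPKM against 729.3 and 1095 FPKM. It was not called either (0.87, adjusted p = 0.180, same edgeR test). The likelihood ratio test of edgeR (adjusted p = 0.0902) and DESeq2 (adjusted p = 0.0524) did call Myl7. DESeq2 called Nppa as well (adjusted p = 0.0631), and the likelihood ratio test did not (adjusted p = 0.1115). These 2 tests called 6.27% and 7.54% of all genes. In the quasi-likelihood test without Charme KO pool 1, Nppa and Myl7 were called, at 1.09 and 1.13. Without Charme KO pool 2 they stood at 0.48 and 0.54.

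Markers of trabecular cardiomyocytes summed to 182.3 to 276.4 FPKM in Charme WT pools and to 992.3 and 358.1 FPKM in Charme KO pools. In both Charme KO pools most of this sum was Nppb. On this list 1 gene was called in each direction, beside 1.53% of all genes tested called as higher and 0.524% as lower. Both Charme KO values were above the Charme WT range for 3 of the 6 genes and below it for 1. The backgrounds were 17.8% and 18.2%. Of these 6 genes, 3 had higher and 3 lower means in Charme KO hearts. Nppb, the B-type natriuretic peptide and the most abundant of them, was called as higher, with 133.6, 169.4 and 79.7 FPKM in Charme WT pools and 912.6 and 261.4 FPKM in Charme KO pools (log2 fold change 2.20, SE 0.449, adjusted p = 0.0633, edgeR's quasi-likelihood test). Its level differed several-fold between the Charme KO pools, and the log2 fold change was 1.04 without pool 1 and 2.83 without pool 2. The call of Nppb was lost without Charme WT pool 1 (adjusted p = 0.203) or pool 3 (0.303) and in the robust form of the edgeR test (0.156). Cited1, next in abundance, had 42.2, 44.6 and 33.9 FPKM in Charme WT pools and 48.9 and 50.6 FPKM in Charme KO pools. It was not called (log2 fold change 0.31, adjusted p = 0.384, edgeR's quasi-likelihood test).

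Irx3, a homeobox factor of the trabecular and conducting myocardium, went the other way, with 23.7, 28.01 and 34.5 FPKM in Charme WT pools and 11.6 and 17.2 FPKM in Charme KO pools. It was called as lower (log2 fold change -0.99, SE 0.237, adjusted p = 0.0955, edgeR's quasi-likelihood test). Irx3 was picked out after its values were seen. Over 18 alternative settings its log2 fold change lay between -1.317 and -0.558, and the call was kept in 7 and lost in 11. Its adjusted p was 0.1003 without Charme KO pool 1 and 0.185, 0.183 and 0.448 without Charme WT pool 1, 2 and 3, all by edgeR. Set against the atrial list within each pool, a ratio chosen after the values were seen, Bmp10 had 2.12, 2.73 and 3.01 FPKM per 1000 FPKM of atrial genes in Charme WT pools and 4.01 and 2.75 in Charme KO pools. Per 1000 FPKM of Myl4 the ratio was 35.6, 47.1 and 58.9 in Charme WT pools and 45.9 and 42.5 in Charme KO pools, both within the Charme WT range. These genes need not be atrial only: the paper takes NPPA as a marker of trabecular cardiomyocytes in the embryo. RNA of whole hearts does not tell atrial from ventricular transcripts. The share of atrial tissue in each pool is not known, and its part in the Bmp10 difference was not tested.

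**Figure D3:**
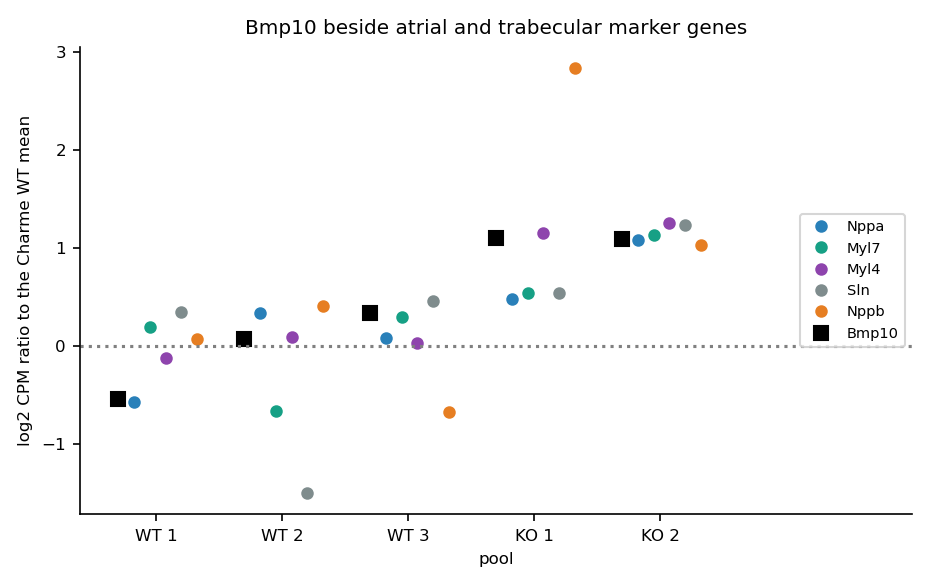
Level of Bmp10 (black squares) and of the marker genes Nppa, Myl7, Myl4, Sln and Nppb (circles) in each pool, as the log2 ratio of its TMM-scaled count (CPM) to the Charme WT mean of the same gene. The atrial genes drawn are the 4 with both Charme KO values above the Charme WT range, and the rest of the list is left out. Nppb is the only trabecular gene drawn. Of the 6 trabecular genes, 3 had higher and 3 lower means in Charme KO hearts. Bmp10 and Myl4 lie close to each other in both Charme KO pools, at FPKM levels 2.14-fold and 2.31-fold those of Charme WT hearts, and Nppb is highest in Charme KO pool 1.

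The other ligands were not called. Bmp2 (chr2, 133552159 to 133562885, plus strand), which induces the cushions of the atrioventricular canal, had 1.05, 1.08 and 1.32 FPKM in Charme WT pools and 1.02 and 0.921 FPKM in Charme KO pools. It was the only one of the 10 genes with both Charme KO values under the Charme WT range, a position held by 18.2% of all genes tested. Its log2 fold change was -0.26 (95% interval -0.92 to 0.41, adjusted p = 0.660, edgeR's quasi-likelihood test), on 51 to 93 counts per pool.

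Bmp4 (chr14, 46383520 to 46390669, minus strand), a ligand of outflow tract septation, had 2.48, 2.34 and 2.68 FPKM in Charme WT pools. In Charme KO hearts it was at 1.51 FPKM in pool 1 and 3.23 FPKM in pool 2, the lowest and the highest of the 5 pools. The fitted difference was small with a wide interval (log2 fold change -0.05, 95% interval -0.81 to 0.71, adjusted p = 0.949 by edgeR), and the value was 0.37 without pool 1 and -0.73 without pool 2.

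Bmp5 (chr9, 75775364 to 75900310, plus strand), which belongs to the same subfamily as Bmp7, had 2.11, 1.63 and 1.91 FPKM in Charme WT pools and 2.39 and 2.03 FPKM in Charme KO pools, with overlap. Bmp7 (chr2, 172868012 to 172940321, minus strand) had 13.2, 16.7 and 12.3 FPKM against 15.0 and 11.6 FPKM, also with overlap. Their log2 fold changes were 0.22 (95% interval -0.34 to 0.79) and -0.08 (95% interval -0.54 to 0.38), and both changed sign under a correction for gene length and GC content, to -0.10 and 0.18. Without Charme KO pool 1 they were 0.10 and -0.28, and without pool 2 they were 0.33 and 0.09. For Bmp7, the most abundant of the 5 ligands, the interval stayed within 2-fold in either direction.

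Bmpr1a (chr14, 34410734 to 34503341, minus strand), the main type I receptor for Bmp2 and Bmp4, was the more abundant of the receptors, with 21.9, 20.9 and 23.4 FPKM in Charme WT pools. In Charme KO hearts it stood at 35.0 FPKM in pool 1, above every other pool, and at 19.1 FPKM in pool 2, below every other pool. Bmpr2 (chr1, 59763400 to 59879014, plus strand), the type II receptor with a long cytoplasmic tail, had 3.68, 4.05 and 4.998 FPKM in Charme WT pools and, with the same split, 6.08 FPKM in Charme KO pool 1 and 3.61 FPKM in pool 2. Neither receptor was called, with log2 fold changes of 0.29 (95% interval -0.24 to 0.83, adjusted p = 0.524) and 0.19 (95% interval -0.35 to 0.73, adjusted p = 0.689) in edgeR's quasi-likelihood test.

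Which Charme KO pool was used decided the direction of both receptors. Without pool 1 their log2 fold changes were -0.21 and -0.23. Without pool 2 they were 0.66 and 0.51 and both were called (adjusted p = 0.0154 and 0.0732, quasi-likelihood test), but so were 31.7% of all genes in that fit. Its 1 remaining Charme KO pool, with the high mitochondrial share, was assumed to vary like the Charme WT pools. With the correction for length and GC content over all pools, the fold changes of Bmpr1a and Bmpr2 fell to 0.02 and 0.00.

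**Figure D4:**
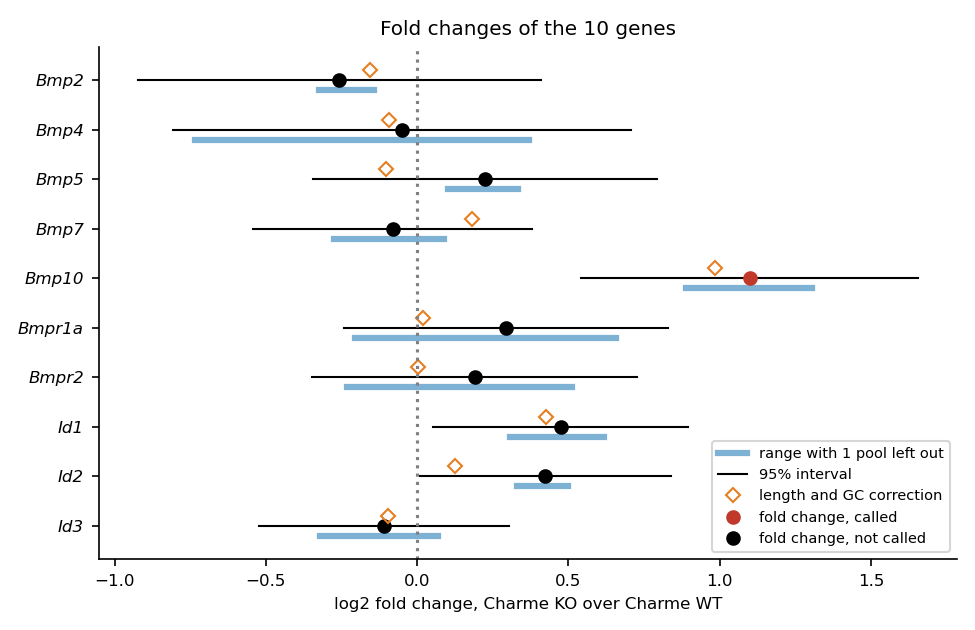
Log2 fold change of each of the 10 genes, Charme KO over Charme WT, as points with 95% intervals (red: called), with the range over fits that leave out 1 pool each (blue bars) and the value after correction for gene length and GC content (diamonds). Bmp10 lies wholly above 0 in every measure, the blue bars of Bmp4, Bmp7, Bmpr1a, Bmpr2 and Id3 cross 0, and the diamond of Id2 lies at 0.12 beside a point at 0.42.

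The ID genes are standard targets of the BMP signal, and none of the 3 was called. The activity of the signal itself was not measured. Id1 (chr2, 152736251 to 152737410, plus strand), the classical immediate BMP target, had 41.2, 33.3 and 36.2 FPKM in Charme WT pools and 56.9 and 45.6 FPKM in Charme KO pools. Id2 (chr12, 25093799 to 25097140, minus strand) had 15.4, 12.1 and 14.5 FPKM against 18.9 and 18.6 FPKM. Like Bmp10, both genes were higher in each Charme KO pool than anywhere in Charme WT hearts, which held for 17.8% of all genes tested.

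After adjustment Id1 had a log2 fold change of 0.47 (SE 0.189, 95% interval 0.05 to 0.90, adjusted p = 0.235), and Id2 one of 0.42 (SE 0.186, 95% interval 0.01 to 0.84, adjusted p = 0.263), both in edgeR's quasi-likelihood test. Id1 also missed the threshold by DESeq2 (adjusted p = 0.201) and by the likelihood ratio test (adjusted p = 0.217). It passed in 1 setting, without Charme KO pool 2 (0.62, adjusted p = 0.0323, quasi-likelihood test), where 31.7% of genes did, and stood at 0.31 without pool 1. The value for Id2 fell to 0.12 under the correction for length and GC content, while that for Id1 was 0.43.

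Id3 (chr4, 136143497 to 136145755, plus strand), the most abundant of the 10 genes in Charme WT hearts, had 36.0, 39.3 and 40.6 FPKM there and 31.1 and 40.4 FPKM in Charme KO pools. Its log2 fold change was -0.11 (95% interval -0.52 to 0.30, adjusted p = 0.772 by edgeR), with 0.07 without Charme KO pool 1 and -0.32 without pool 2. Its difference from Id1 and Id2 was not tested. In sum the ID transcripts reached 92.5, 84.7 and 91.3 FPKM in Charme WT pools and 106.9 and 104.7 FPKM in Charme KO pools.

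Over the 10 genes, 6 had a higher and 4 a lower mean in Charme KO hearts, with a median log2 fold change of 0.21 beside 0.02 over all genes tested. Levels of endothelial and endocardial genes, which mark the cells that answer to Bmp10, summed to 281.5 to 329.5 FPKM in Charme WT pools and to 224.2 and 274.7 FPKM in Charme KO pools. Epicardial and mesothelial genes summed to 29.2 to 46.9 FPKM against 60.8 and 58.7 FPKM. Both Charme KO values were above the Charme WT range for 5 of these 7 genes, at a background of 17.8%. Of the rest, Wt1 overlapped between the genotypes and Aldh1a2 had both Charme KO values below the range, at a background of 18.2%. Genes of the G2/M phase summed to 58.2 to 94.5 FPKM against 286.8 and 184.8 FPKM. The part of these cells in the values of Id1 and Id2 was not tested.

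A further 55 genes of the pathway were followed, of which 42 passed the filter on low counts and 13 did not. None of the 42 was called by the quasi-likelihood test of edgeR. An unadjusted p under 0.05 in that test was held by 5 of them, beside 2767 of all 14880 genes tested. Sost, 1 of the 42, was called by both the likelihood ratio test and DESeq2. Of the 42, 15 were higher and 27 lower in Charme KO hearts, with a median log2 fold change of -0.15 against 0.02 over all genes. Both Charme KO values exceeded the Charme WT range for 2 of the 42 genes and fell under it for 8, at backgrounds of 17.8% and 18.2%.

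Of 9 other BMP-class ligands, 3 were tested. Bmp6, a ligand of iron and bone metabolism, overlapped Bmp10 in Charme WT hearts, with 3.42, 4.01 and 4.03 FPKM, and stood at 3.51 and 4.13 FPKM in Charme KO hearts. Gdf5, a ligand of joint formation, had 0.0209, 0.0488 and 0.240 FPKM in Charme WT pools, 0.0305 FPKM in Charme KO pool 1 and 1.39 FPKM in pool 2, the pool with the salivary and adipose transcripts. Its log2 fold change of 2.89 (adjusted p = 0.201, edgeR's quasi-likelihood test) thus came from 1 pool, and it was 3.71 and called without Charme KO pool 1 (adjusted p = 0.00416, same test). Among genes that failed the filter, Fst, Bmp3 and Sostdc1 showed the same pattern, with 94, 34 and 27 counts in Charme KO pool 2 and at most 8, 4 and 7 in any other pool. These 3 were picked out after their values were seen.

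The other receptors had 4 of 5 genes tested and none called. Acvrl1, the endothelial type I receptor for Bmp10, had 6.72, 8.06 and 7.33 FPKM in Charme WT pools and 4.98 and 7.07 FPKM in Charme KO pools (log2 fold change -0.29, 95% interval -0.77 to 0.20). The value was -0.06 without Charme KO pool 1 and -0.57, with a call, without pool 2. Under the length and GC correction over all pools it was -0.034. Acvr1, a broadly used type I receptor, had 5.80 to 6.85 FPKM in Charme WT and 4.92 and 6.70 FPKM in Charme KO pools. The higher level of Bmp10 thus stood beside a receptor whose level overlapped between the genotypes.

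All 4 co-receptors had lower means in Charme KO hearts (median log2 fold change -0.55), and none was called. Eng, the endothelial co-receptor for Bmp10, had 50.8, 78.3 and 64.2 FPKM in Charme WT pools and 34.2 and 66.1 FPKM in Charme KO pools. Its log2 fold change was -0.36 (95% interval -0.995 to 0.28), and -0.128 under the length and GC correction. The value was 0.04 without Charme KO pool 1 and -0.92, with a call, without pool 2. Hjv, hemojuvelin, a co-receptor of striated muscle and liver, had 40.7, 43.6 and 33.9 FPKM against 20.8 and 32.4 FPKM, with both Charme KO values under the Charme WT range. The log2 fold change was -0.56 (95% interval -1.07 to -0.06, adjusted p = 0.236 by edgeR), with -0.28 without Charme KO pool 1 and -0.93, with a call, without pool 2.

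None of the 4 SMADs that carry the BMP signal was called. Smad4, the shared partner, had 14.2, 15.9 and 16.9 FPKM in Charme WT pools and 14.5 and 13.6 FPKM in Charme KO pools (log2 fold change -0.16, 95% interval -0.55 to 0.23). Smad5, a receptor SMAD, had 8.61, 9.67 and 10.8 FPKM against 8.03 and 7.75 FPKM (-0.30, 95% interval -0.70 to 0.10), with both Charme KO values under the Charme WT range.

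Of 6 intracellular inhibitors, 5 had lower means and none was called. Tob1, an antiproliferative protein that binds BMP SMADs, had 18.1 to 33.4 FPKM in Charme WT and 16.7 and 26.6 FPKM in Charme KO pools. Smad6, an inhibitory SMAD that the BMP signal itself induces, had 11.9, 12.8 and 14.1 FPKM in Charme WT pools and parted between the Charme KO pools, at 7.27 FPKM in pool 1 and 15.3 FPKM in pool 2. Its log2 fold change of -0.19 (95% interval -0.82 to 0.44) turned to 0.25 without pool 1 and was -0.84, with a call, without pool 2.

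Of the 16 secreted antagonists, 10 were tested, 5 with higher and 5 with lower means. Sost, sclerostin, an inhibitor of WNT signals that also belongs to the family of BMP antagonists, had 5.97, 3.73 and 8.62 FPKM in Charme WT pools and 1.65 and 2.54 FPKM in Charme KO pools, without overlap. Its log2 fold change was -1.53 (SE 0.384, 95% interval -2.38 to -0.67), the lowest of the 42 genes, with an adjusted p of 0.108 in edgeR's quasi-likelihood test, 0.0105 in its likelihood ratio test and 0.00378 in DESeq2. Over the alternatives its log2 fold change ran from -1.90 to -1.05 and its adjusted p from 0.00378 to 0.461, and it was called without Charme KO pool 2 (0.0175) and without Charme WT pool 2 (0.0641). Twsg1 and Nbl1, the most abundant antagonists, had 16.8 to 20.6 FPKM and 7.41 to 10.4 FPKM in Charme WT pools, and 16.6 to 19.8 FPKM and 8.61 to 13.3 FPKM in Charme KO pools. Chrdl1, a chordin-like antagonist picked out after its values were seen, was below 1 FPKM in all 5 pools (0.0503 to 0.259 FPKM in Charme WT, 0.472 and 0.511 FPKM in Charme KO) and was not called (log2 fold change 1.68, adjusted p = 0.149 by edgeR).

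Among 8 other targets of the signal, 5 had lower and 3 higher means, and none was called. Tbx20, a cardiac T-box factor, had 19.7 to 23.4 FPKM in Charme WT and 23.8 and 16.8 FPKM in Charme KO pools. Tbx2, a T-box repressor of the atrioventricular canal, had 5.30, 7.17 and 6.36 FPKM against 2.56 and 5.51 FPKM (log2 fold change -0.62, 95% interval -1.32 to 0.07). The value was -0.18 without Charme KO pool 1, -0.30 under the length and GC correction, and -1.30, with a call, without Charme KO pool 2 (adjusted p = 0.00750 by edgeR). Id4, the fourth ID gene, named after its values were seen, had 0.732, 0.544 and 0.841 FPKM in Charme WT pools and 1.36 and 1.18 FPKM in Charme KO pools, without overlap. The log2 fold change was 0.83 (95% interval 0.14 to 1.53, adjusted p = 0.214 by edgeR), with a call without Charme KO pool 2 (0.93, adjusted p = 0.0873).

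The partners that ID proteins hold, the E proteins, comprised 3 tested genes. Tcf3 was the most abundant, with 20.6, 22.7 and 23.3 FPKM in Charme WT pools and 12.1 and 20.9 FPKM in Charme KO pools, which overlapped (log2 fold change -0.42, 95% interval -0.95 to 0.10). The value was -0.08 without Charme KO pool 1 and -0.88, with a call, without pool 2. Under the length and GC correction over all pools it was -0.098. Tcf12 had 4.01 to 4.66 FPKM in Charme WT and 4.81 and 4.13 FPKM in Charme KO pools. Neither was called over all 5 pools. The calls without Charme KO pool 2 given for these genes stand beside the 31.7% of all genes called in that fit.

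**Figure D5:**
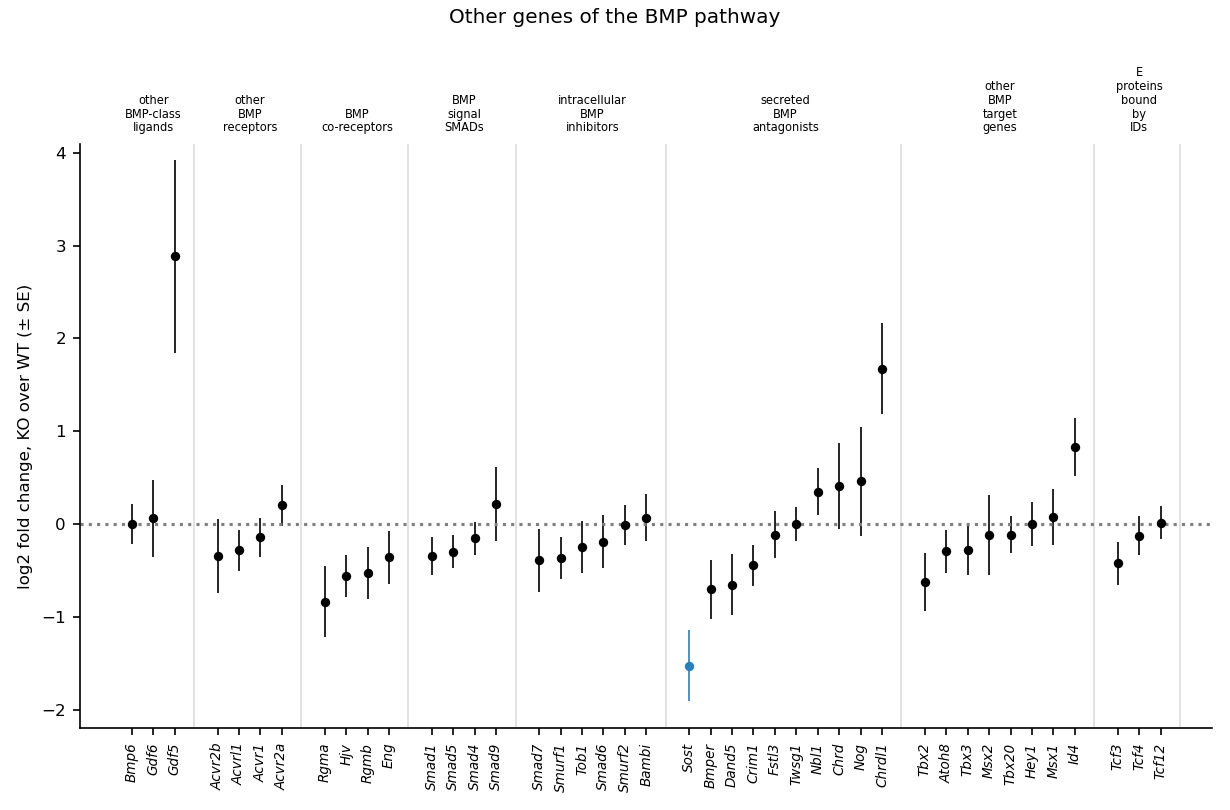
Log2 fold change, Charme KO over Charme WT, with its SE for the 42 other pathway genes that passed the filter, grouped by role (blue: called by the likelihood ratio test). Sost is the lowest at -1.53, Gdf5, carried by 1 pool, the highest at 2.89, and all 4 co-receptors lie below 0.

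Several of the genes have spans, introns included, that overlap those of other annotated genes. Whether their exons share bases was not examined. On the strand of the gene itself, Gm47723 overlaps Bmp5 and Gm38125 overlaps Bmpr2. Antisense or opposite-strand transcripts overlap Bmp4, Bmp5 and Bmpr1a, and the counting was specific for strand. No annotated gene overlaps Bmp2, Bmp7, Bmp10, Id1, Id2 or Id3.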

How the data were processed

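Polyadenylated RNA was sequenced from 5 pools of PN2 hearts with a stranded library kit. The authors used Cutadapt and Trimmomatic for trimming and STAR for alignment to GRCm38 and for strand-specific counting on Ensembl 87 genes. The deposited values are these raw counts, without normalization. A deposited table of FPKM values, its decimals written with a comma, was not used. FPKM was computed here from the counts, TMM library sizes and exon lengths of GENCODE M21, which matched 49411 of 49671 genes. The 23 tested genes without a length, Charme among them, were given 1 kb.

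The genes that reached 10 counts in 2 or more pools were normalized by TMM and entered the quasi-likelihood test of edgeR for genotype, with p-values adjusted by Benjamini-Hochberg across all of them. The paper's methods name the likelihood ratio test of edgeR, given as an alternative. A positive log2 fold change means higher in Charme KO hearts, and 95% intervals are per gene, without adjustment. R 4.3.3, edgeR 4.0.16, limma 3.58.1 and DESeq2 1.42.0 were used, and the fit was tested on simulated data. Alternatives were the likelihood ratio test, DESeq2, other forms of the quasi-likelihood test, other normalizations and filters, a threshold of 0.05, the replicate number as a block, splines on gene length and GC content per pool, and fits with a pool left out. The precision is set by 5 pools, and low counts add to it: the 10 genes had from 48 to 3138 counts per pool.

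The 10 genes and all lists were chosen with earlier results of these data known. Of the other pathway genes, the rule for naming took those called by either edgeR test and the 2 most abundant of each group, and of marker lists the 2 most abundant. Genes named outside it, among them Chrdl1, Id4, Fst, Bmp3, Sostdc1, Myl4, Irx3 and Sln, were chosen after their values were seen. Groups and replicate numbers came from the labels.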

Additional observations from a re-analysis of the deposited data

How the results depend on the processing

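Of the 10 genes, 1 was called, and this became 0 at an adjusted p under 0.05 and under the replicate block with the length and GC correction, and 0 to 4 when 1 pool was left out. Among the other 42 pathway genes, 0 calls became 1 under the likelihood ratio test, 1 under DESeq2 and 0 to 14 with 1 pool left out. Over all genes, 305 calls became 933 under the likelihood ratio test, 1122 under DESeq2, 111 at 0.05, 25 under the block with the length and GC correction, and 0 to 4607 with 1 pool left out. Without Charme WT pool 3, edgeR's quasi-likelihood test called 0 genes, with 1315 at an unadjusted p under 0.05. Without Charme WT pool 1 it called 2, without Charme WT pool 2 it called 187, and without Charme KO pool 1 it called 639; the lone Charme KO pool left in such fits was assumed to vary like the Charme WT pools. Pool numbers are only shared by the labels: deviations of same-numbered pools correlated across genes at 0.137 and 0.078, over 2 pairs. The replicate block alone called 210 genes and kept Bmp10 (log2 fold change 1.33, adjusted p = 0.0463 by edgeR), and with the length and GC correction Bmp10 was at 1.21 (0.210).

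Signs changed for several uncalled genes. Under the length and GC correction, without and with the block, Bmp5 was at -0.10 and -0.11, Bmp7 at 0.18 and 0.061, and Smad6 at 0.041 and 0.087. With 1 pool left out, log2 fold changes ran from -0.73 to 0.37 for Bmp4, -0.28 to 0.09 for Bmp7 (0.06 without Charme WT pool 2), -0.21 to 0.66 for Bmpr1a, -0.23 to 0.51 for Bmpr2, -0.32 to 0.068 for Id3, -0.92 to 0.04 for Eng and -0.84 to 0.25 for Smad6. The cause was not tested. The median of all genes stayed between 0.00 and 0.06 under every scaling. The fit without mitochondrial, salivary and adipose genes was chosen after seeing the data and called the same 1 of the 10 genes. The alternative on the deposited FPKM values was not run.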
